A study of Mus musculus with 39 samples.

Results

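Mbp, Sox10, Pmp22, Prx, Egr2, Mag and S100b are 7 genes of the Schwann cell and of the myelin sheath it makes. They were taken by gene symbol, with earlier results of these data known, and all 7 were found among the 21561 genes that both deposited count tables of this mouse study list. The members were followed across the gubernaculum, the cord of muscle and connective tissue that guides the testis to the scrotum, with testis as the reference tissue.

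Schwann cells are the glia of peripheral nerves, and those that wrap larger axons build a compact myelin sheath. The transcription factor SOX10 keeps the lineage in all Schwann cells, EGR2 (also called KROX20) switches on the myelin program, and MBP and PMP22 are proteins of compact myelin. Periaxin (Prx) links the outer sheath to the basal lamina through DRP2, MAG sits at the contact between sheath and axon, and the calcium-binding protein S100B is a common marker of the lineage. The gubernaculum and its cremaster muscle are supplied by the genitofemoral nerve, so that Schwann cells are among the cells of a whole-tissue sample.

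RNA-seq was done on gubernaculum and testis of male C57BL/6J mice without any drug or hormone treatment. INSL3 is the Leydig cell hormone that acts on the gubernaculum, and the question was what the hormone of a whale, an animal whose testes stay in the abdomen, does in its place. Wild-type (WT) mice were compared with INSL3-KI and INSL3-KO mice. In INSL3-KI mice minke whale cDNA stands in the native Insl3 locus under the mouse regulatory elements in both alleles. INSL3-KO mice are named by the study as knockouts of the gene, and the Insl3 counts of libraries with that label are given below. The 5 gubernaculum groups were WT, INSL3-KI and INSL3-KO at 8 days (P8) and WT and INSL3-KI at 23 days (P23), with 3 libraries each. Libraries were made from whole gubernaculum, and in such tissue fewer Schwann cells and less RNA per Schwann cell cannot be told apart. Both alleles are constitutive, so a difference is not tied to 1 cell type. INSL3-KO gubernaculum at P23 was not analysed here.

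In GRCm38 with the GENCODE M21 annotation, Sox10 lies at chr15:79154908-79165240 on the minus strand and Egr2 at chr10:67535475-67542188 on the plus strand. Pmp22 lies at chr11:63128982-63159547 and S100b at chr10:76253853-76261159, both on the plus strand. Prx, at chr7:27499324-27520214 on the plus strand, and Mag, at chr7:30899176-30914873 on the minus strand, share a chromosome. An antisense gene, Gm15541, overlaps Prx, and Dip2a overlaps S100b from the opposite strand. A processed pseudogene, Rpl21-ps8, overlaps Mbp, also from the opposite strand. Whether counting used the strand is not given in the sources used here, so reads of these overlapping genes may not be fully separated.

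The 250 bases before the first listed start of Prx, Pmp22 and Mag, from RefSeq on GRCm38.p6, are shown because these 3 structural members gave different patterns below. Capitals mark CTTTGT, the reverse complement of the SOX hexamer ACAAAG.
Prx, chr7:27499074-27499323, plus strand: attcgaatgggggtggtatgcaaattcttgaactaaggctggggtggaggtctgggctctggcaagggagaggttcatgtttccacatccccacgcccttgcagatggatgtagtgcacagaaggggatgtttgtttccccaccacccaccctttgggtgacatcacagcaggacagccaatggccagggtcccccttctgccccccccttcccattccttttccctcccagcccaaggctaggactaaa
Pmp22, chr11:63128732-63128981, plus strand: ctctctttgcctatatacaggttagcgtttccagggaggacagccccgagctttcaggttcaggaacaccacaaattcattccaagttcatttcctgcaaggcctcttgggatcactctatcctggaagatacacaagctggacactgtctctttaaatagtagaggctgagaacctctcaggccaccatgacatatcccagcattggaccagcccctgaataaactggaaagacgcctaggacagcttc
Mag, chr7:30914864-30915113, minus strand: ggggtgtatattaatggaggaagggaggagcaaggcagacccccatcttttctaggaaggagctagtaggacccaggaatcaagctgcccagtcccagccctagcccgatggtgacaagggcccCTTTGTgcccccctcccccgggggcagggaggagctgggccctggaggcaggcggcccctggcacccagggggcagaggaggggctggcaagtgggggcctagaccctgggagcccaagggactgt
The set of RefSeq promoters used here had matched entries for 5 of the 7 members, 14 windows in all, and none for Sox10 and Mbp. Both strands were searched for ACAAAG and ACAATG, the hexamers that SOX factors bind, and for GCGNGGGCG, bound by EGR factors. The Mag window above holds 1 ACAAAG, which begins at position -126 from the start, and the window of the second listed Mag start holds the same site. No other window of a member holds any of the motifs. ACAAAG is in 16.5%, ACAATG in 10.7% and the EGR motif in 4.7% of all 32851 windows of this length, so the single match is a description of the letters and no more.

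The gubernaculum libraries held between 29861447 and 45260372 counts, so the lowest members rest on few reads. Insl3 itself, which is made in the testis, had 2722 to 3524 counts in WT testis at P8, against 15 to 33 in the libraries labelled INSL3-KI and 613 to 906 in those labelled INSL3-KO. The P8 testes labelled INSL3-KO were thus not free of Insl3 counts. Why was not tested, and the labels were kept. At P23 the INSL3-KO testes held 0 to 5 counts and the INSL3-KI testes 52 to 84, against at least 20844 in WT. Gubernaculum at P8 held 87, 25 and 29 Insl3 counts in WT and 0 in every INSL3-KI and INSL3-KO library. At P23 WT gubernaculum held 27, 9 and 20 counts and INSL3-KI gubernaculum 12, 28 and 0, with overlap. The 28 counts were in INSL3-KI replicate 2, a library that stands apart in results below. The source of these INSL3-KI counts was not tested. All INSL3-KO libraries stand in a different deposited table from the other gubernaculum libraries, so that table and genotype cannot be told apart in any comparison with them. The groups also differed in the other cells they held. Levels are given as CPM, in which counts are set relative to the TMM-scaled library total. Summed CPM of 22 skeletal muscle genes were 48086 to 54400 in WT and 803 to 1337 in INSL3-KI at P8, with INSL3-KO at 9591 to 10309. At P23 the same sum was 92823 to 167268 in WT and 25 to 1052 in INSL3-KI. A set of 8 adipocyte genes summed to 314 to 594 CPM in WT at P23 and to 14790, 30457 and 1033 in the INSL3-KI libraries, which therefore differ greatly among themselves. The part of these other cells in the differences below was not tested. Oligodendrocytes, the glia of the central nervous system, also express Mbp and Mag, and the sum of 8 of their genes was at most 1.16 CPM outside WT at P23 and 1.66 to 2.61 CPM there. Most of that was Mobp, a gene of central myelin, with 47, 61 and 40 reads in WT at P23 against 0 to 7 in every other gubernaculum library, called higher from P8 to P23 in WT (log2 6.09). The defining markers Olig2 and Mog were at 0 in WT at P23. The part of such transcripts in Mbp and Mag, which were highest in the same libraries, was not tested.

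**Figure D1:**
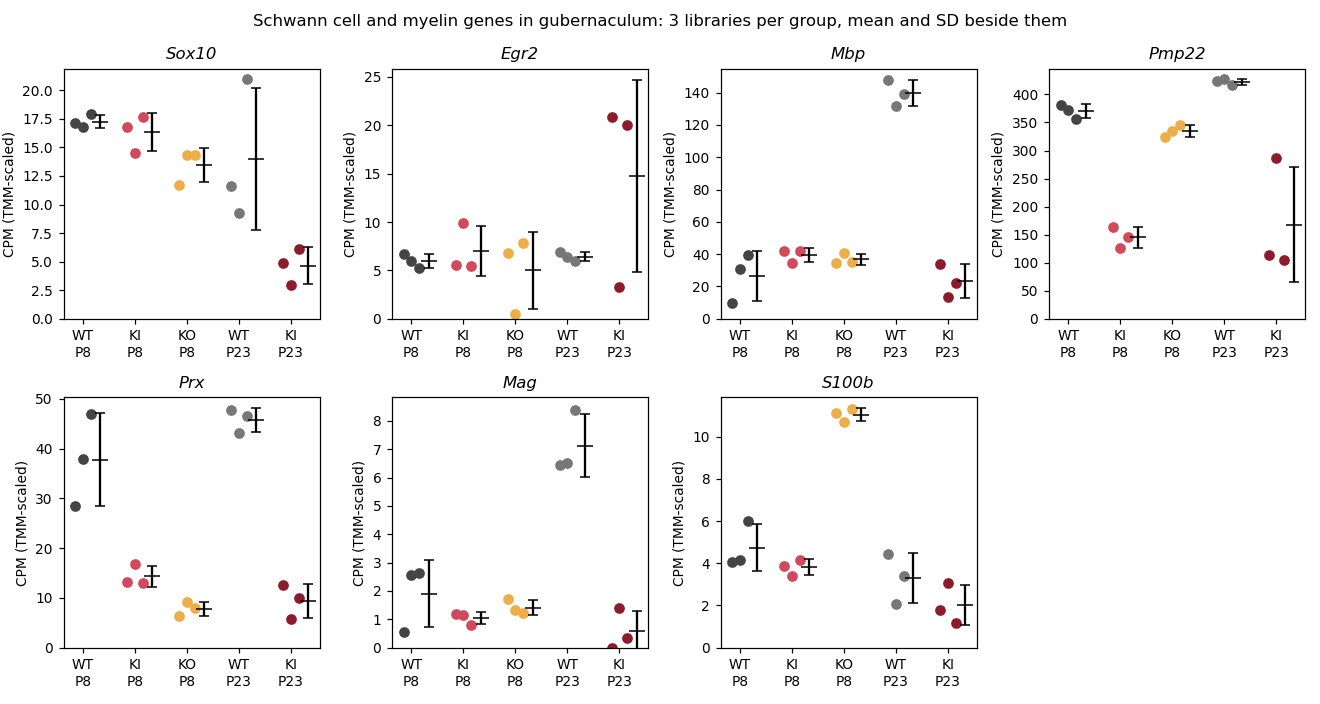
Level (CPM, TMM-scaled, linear axis from 0) of the 7 members in each gubernaculum library, coloured by genotype and age, with the mean and SD of the 3 libraries of a group beside the points; a bar that would pass below 0 ends at the axis. Mbp and Mag sit highest in the 3 WT libraries at P23, and Pmp22 sits between 127 and 164 CPM in INSL3-KI at P8, below all WT and INSL3-KO libraries of that age.

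Levels between genes were compared as FPKM, which corrects for transcript length. In WT gubernaculum at P8 Pmp22 was by far the most abundant member, at 179 FPKM. Mbp (8.96 FPKM), Prx (6.79) and Sox10 (5.46) followed with overlapping libraries. S100b (2.72), Egr2 (1.72) and Mag (0.676) came last, each apart from its neighbours. Pmp22 is also expressed outside nerve, in fibroblasts and epithelia, and its level far above the other myelin genes is given here as a level of the whole tissue. In WT at P23 the order was Pmp22 (190 FPKM), Mbp (51.2), Prx (7.27), Sox10 (4.16), Mag (2.44), Egr2 (1.77) and S100b (1.73). Of these neighbours, Prx, Sox10 and Mag overlapped in turn, and so did Egr2 and S100b. In INSL3-KI at P23 Mbp, at 6.45 FPKM, overlapped Egr2 at 7.09, while Pmp22 stayed first at 91.6 FPKM.

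The first comparison asks how the members differ among the 3 genotypes at P8. Prx was lower in both mutants and Pmp22 in INSL3-KI, S100b was higher in INSL3-KO, and Sox10 passed the test in neither mutant. A gene was called where edgeR's quasi-likelihood test gave an adjusted p under 0.01 and the change was at least 2-fold. In INSL3-KI against WT 2 of the 7 members were called lower and 0 higher, beside 9.70% and 14.4% of the 15500 genes tested. In INSL3-KO against WT 1 was called lower and 1 higher, beside 15.2% and 15.5% of 15609 genes. Both contrasts use the same WT libraries. In INSL3-KI against INSL3-KO, the direct test, 2 members were called lower, beside 10.5% of 15642 genes, and 0 higher, beside 11.9%. Both INSL3-KI calls against WT were lost by limma on log2(FPKM + 1), where Pmp22 was at -0.94 and Prx at -0.79, short of 2-fold with adjusted p = 3.0e-04 and 0.0036, beside 6.38% of genes called lower. A pseudocount of 0.1 also lost both (-0.95 and -0.93), and scaling by library size lost Pmp22 (-0.99) and called 7.31% of genes lower and 20.3% higher.

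Sox10, the lineage factor, had 17.1, 16.8 and 17.9 CPM in the WT libraries at P8, 16.8, 14.5 and 17.7 in INSL3-KI and 11.7, 14.3 and 14.3 in INSL3-KO. The WT and INSL3-KI libraries overlapped, and the INSL3-KO libraries all lay below both. The log2 fold change was -0.04 ± 0.13 (SE) in INSL3-KI and -0.37 ± 0.12 in INSL3-KO, with edgeR adjusted p = 0.80 and 0.026, neither past the threshold. With scaling by library size alone the INSL3-KI value was 0.28, where the median of all genes was 0.34. Egr2, the myelination switch, had 5.25 to 6.66 CPM in WT and 5.45 to 9.94 in INSL3-KI. In INSL3-KO it had 6.78, 0.446 and 7.81 CPM, from 260, 20 and 342 reads. The library of INSL3-KO replicate 2 thus stood far below the other two for this gene, and the groups overlapped. Egr2 is also an immediate early gene outside nerve, and its fold changes (0.27 ± 0.28 and -0.25 ± 0.80, log2) did not pass the test.

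Pmp22 had 381, 372 and 357 CPM in WT, 164, 127 and 145 in INSL3-KI and 324, 334 and 345 in INSL3-KO. The INSL3-KI libraries did not overlap the others. Pmp22 was 2.47-fold lower in INSL3-KI than in WT (log2 -1.31 ± 0.11, edgeR adjusted p = 4.1e-05). It was 2.29-fold lower than in INSL3-KO (log2 -1.19 ± 0.10, edgeR adjusted p = 7.6e-05). INSL3-KO and WT differed by log2 -0.15 ± 0.06, which did not pass (adjusted p = 0.073). Fibroblasts express Pmp22 too. The sum of 8 fibroblast genes was 43722 to 46769 CPM in WT, 17539 to 26026 in INSL3-KI and 28068 to 29817 in INSL3-KO. The part of fibroblasts in the level of Pmp22 was not tested.

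Prx had 28.4, 38.0 and 47.0 CPM in WT, 13.2, 16.8 and 12.9 in INSL3-KI and 6.31, 9.18 and 7.90 in INSL3-KO. The 3 genotypes did not overlap in any pair. Prx was 2.57-fold lower in INSL3-KI (log2 -1.36 ± 0.20, edgeR adjusted p = 7.8e-04) and 4.85-fold lower in INSL3-KO (log2 -2.28 ± 0.22, adjusted p = 9.9e-05) than in WT. Between the mutants the difference was 1.84-fold, INSL3-KI being the higher (edgeR adjusted p = 0.0046), short of the 2-fold threshold. Leaving out INSL3-KO replicate 2 took it past both thresholds (log2 1.01, adjusted p = 0.0071). Its partner Drp2, not a member, was also called lower in both mutants, from 60.3 to 69.4 CPM in WT to 4.96 to 10.1 in INSL3-KI and 14.9 to 15.6 in INSL3-KO. The skeletal muscle sum above was also lower in both mutants. Like Drp2 it was lowest in INSL3-KI, whereas Prx was lowest in INSL3-KO. The part of muscle in the levels of Prx and Drp2 was not tested.

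S100b had 4.04, 4.17 and 6.01 CPM in WT, 3.88, 3.41 and 4.17 in INSL3-KI and 11.1, 10.7 and 11.3 in INSL3-KO. The INSL3-KO libraries lay above all others. It was 2.33-fold higher in INSL3-KO than in WT (log2 1.22 ± 0.19, edgeR adjusted p = 0.001) and 2.89-fold lower in INSL3-KI than in the knockout (log2 -1.53 ± 0.14, adjusted p = 1.1e-04). With all 5 gubernaculum groups in 1 edgeR fit the first of these had an adjusted p of 0.012 and was not called, beside 9.34% of genes called higher there. S100b is expressed by adipocytes too, and the sum of 8 adipocyte genes was 390 to 418 CPM in WT, 1519 to 2024 in INSL3-KI and 3690 to 3965 in INSL3-KO. The part of adipocytes in the level of S100b was not tested.

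Mbp had 9.57, 30.8 and 39.6 CPM in WT, 42.1, 34.7 and 42.0 in INSL3-KI and 34.5, 40.9 and 35.3 in INSL3-KO. The first WT library was low and the groups overlapped. Mag rested on few reads, with 17, 85 and 83 counts in WT (0.537, 2.55 and 2.63 CPM), 47, 41 and 27 in INSL3-KI and 66, 59 and 53 in INSL3-KO. The first WT library was low here also. With log2 fold changes of 0.61 ± 0.42 for Mbp and -0.82 ± 0.59 for Mag in INSL3-KI, neither gene passed in any P8 gubernaculum contrast.

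**Figure D2:**
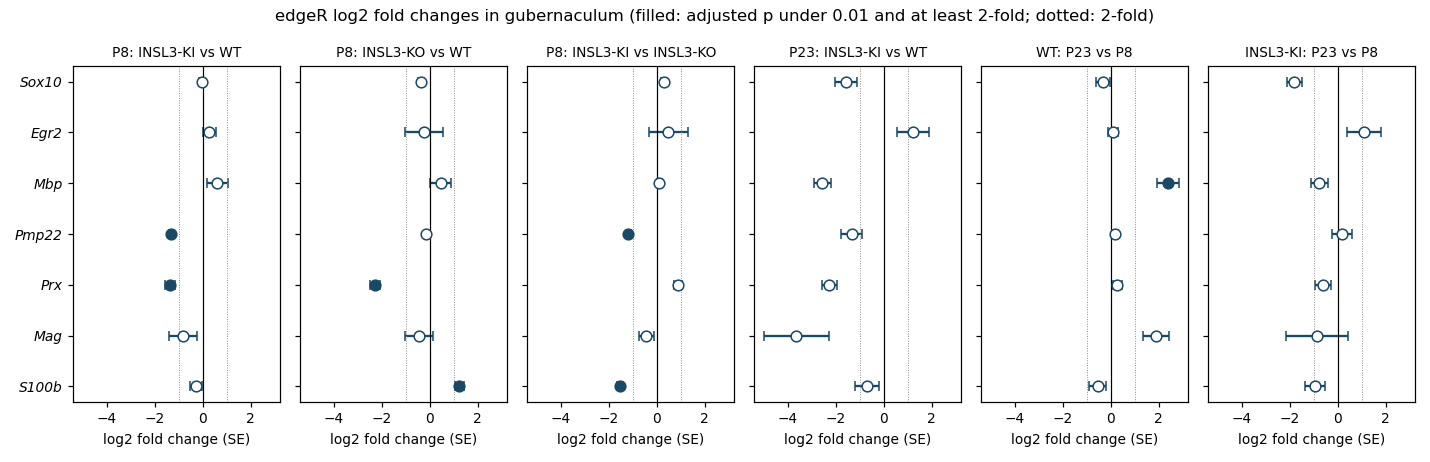
Log2 fold change of each of the 7 members in 6 gubernaculum comparisons, 1 panel each, as points with SE from edgeR; filled points were called (adjusted p under 0.01 and at least 2-fold, the dotted lines). In INSL3-KI against WT at P23 only Egr2 lies above 0 and no point is filled.

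The second comparison asks how the members changed between P8 and P23 in WT gubernaculum, a period of active myelination in mouse nerve. Mbp was higher at P23 and was the only member called, beside 6.17% of 14941 genes called higher and 4.34% called lower, of which 0 were members. Mbp rose from 9.57, 30.8 and 39.6 CPM at P8 to 148, 132 and 139 at P23, a 5.21-fold change (log2 2.38 ± 0.45, edgeR adjusted p = 0.0073). No P23 library came near the P8 range. The call was lost on leaving out any library other than WT P8 replicate 1 (adjusted p up to 0.031), while the log2 change stayed between 1.98 and 2.78. Mag, at 6.46, 6.52 and 8.40 CPM, also lay above every P8 library. Its log2 change of 1.90 ± 0.54 had edgeR adjusted p = 0.029, short of the threshold, and DESeq2 called Mag, beside 9.60% of genes called higher by it.

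Sox10 had 11.6, 9.29 and 21 CPM in WT at P23, which overlapped its P8 values. Pmp22 (424, 427 and 416 CPM), Prx (47.7, 43.1 and 46.5), Egr2 (6.85, 6.43 and 5.96) and S100b (4.44, 2.05 and 3.39) had log2 changes from P8 of between -0.54 and 0.27, none of which passed. In WT the P23 libraries thus held more Mbp, while Sox10 overlapped between the ages.

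The third comparison asks how INSL3-KI differs from WT at P23. Mbp, Prx, Pmp22, Sox10 and Mag lay below WT in all 3 INSL3-KI libraries, and edgeR called none of them. By edgeR 0 members were called lower and 0 higher, beside 2.35% and 0.212% of 15082 genes, and 5 of 7 had an unadjusted p under 0.05. The share of all genes at that unadjusted p, or with all INSL3-KI libraries below WT, is not given here. DESeq2 called 3 members lower, Sox10, Mbp and Prx, beside 9.18% of genes, and edgeR with all 5 gubernaculum groups in 1 fit called 4, Pmp22 also, beside 8.98%. The median log2 change of the members was -1.57, beside 0.11 over all genes tested. The INSL3-KI libraries at P23 held the pair of replicates that differed most of all, with a mean chi-square of 909 per gene. Their other pairs had 428 and 422, and pairs of WT gubernaculum at P23 had 81.5 to 237. The pair that differed least, at 4.26, was of WT testis at P23.

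Mbp had 34.2, 13.7 and 22.3 CPM in INSL3-KI at P23, against 148, 132 and 139 in WT, so that all lay within the P8 range of WT. The level was 5.89-fold lower (log2 -2.56 ± 0.36) with edgeR adjusted p = 0.013, and DESeq2 gave 5.3e-10. Prx had 12.6, 5.76 and 9.92 CPM against 47.7, 43.1 and 46.5, a log2 change of -2.26 ± 0.32 with the same edgeR adjusted p, and DESeq2 gave 2.1e-09. These were the clearest separations among the members. Sox10 did not pass, with 4.85, 2.93 and 6.14 CPM against 11.6, 9.29 and 21 (log2 -1.57 ± 0.44, edgeR adjusted p = 0.068). Mag had 0, 45 and 16 reads in INSL3-KI and 163, 207 and 268 in WT. Its log2 change of -3.64 ± 1.35 had edgeR adjusted p = 0.12.

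Pmp22 and Egr2 turned on the second INSL3-KI library. Pmp22 had 113, 286 and 104 CPM against 416 to 427 in WT (log2 -1.34 ± 0.42, edgeR adjusted p = 0.085). The fibroblast sum at P23 was 4709 to 15522 CPM in INSL3-KI and 18854 to 46204 in WT, and the part of fibroblasts in Pmp22 was not tested. Egr2 had 20.9, 3.27 and 20.0 CPM against 5.96 to 6.85 (log2 1.22 ± 0.67, adjusted p = 0.25). Leaving out INSL3-KI replicate 2 gave 4 calls, lower Mbp (-2.34, adjusted p = 0.0062), Pmp22 (-2.0, 0.005) and Prx (-2.06, 0.0048) and higher Egr2 (1.63, 0.0087). The share of all genes called in that fit is not given here, so these 4 calls have no background beside them. That library had the highest adipocyte sum, 30457 CPM, and a sum of 8 epididymis genes of 1.39 CPM, where the other two had 2610 and 7449. The high Egr2 values were in the 2 libraries that held epididymis transcripts, and WT replicate 3, with an epididymis sum of 1078 CPM, had an Egr2 level of 5.96. The part of these transcripts was not tested. S100b, at 1.79, 3.08 and 1.19 CPM against 2.05 to 4.44, overlapped WT.

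Differences in the same direction were measured for some myelin genes outside the members. Drp2 was lower by 4.06 ± 0.29 on the log2 scale (edgeR adjusted p = 0.0019), and the call was lost without WT replicate 2 (adjusted p = 0.013). The claudin of the sheath, Cldn19, had 0, 5 and 0 reads in INSL3-KI against 15.2 to 19.3 CPM in WT, with edgeR adjusted p = 0.013. By contrast, the lineage marker Cdh19 had 5.55 to 8.00 CPM against 5.07 to 7.53 in WT.

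Within INSL3-KI, P23 against P8, edgeR called 0 of all 15271 genes, a percent called of 0, and 1 member had an unadjusted p under 0.05. DESeq2 called 366 genes lower and 239 higher there, 2.40% and 1.57%. Mbp was 34.7 to 42.1 CPM at P8 and 13.7 to 34.2 at P23 (log2 -0.76, edgeR adjusted p = 0.29). Sox10 was 14.5 to 17.7 CPM at P8 and 2.93 to 6.14 at P23 (log2 -1.81 ± 0.32, adjusted p = 0.13), and DESeq2 and the fit with all 5 groups called it lower, the latter beside 1.02% of genes. Whether the INSL3-KI difference changed with age was tested as an interaction. There edgeR called 0 members, beside 0.194% of genes lower and 0.0874% higher, and 3 members had an unadjusted p under 0.05. The share of all genes at an unadjusted p under 0.05 is not given here for the interaction or for INSL3-KI with age. The interaction of Mbp was -3.19 ± 0.65 (log2, edgeR adjusted p = 0.022) and that of Sox10 -1.56 ± 0.46 (adjusted p = 0.065). DESeq2 and the fit with all 5 groups called Mbp lower, beside 4.60% and 1.85% of genes.

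Because myelin genes and Sox10 come from the same cells in nerve, each member was also expressed per Sox10 in each library, as a log2 ratio of CPM. With 3 libraries against 3, an exact two-sided permutation test cannot give less than p = 0.1, the value for groups that do not overlap. Mbp per Sox10 was 0.39 ± 1.08 (SD, n = 3) in WT at P8 and 3.41 ± 0.59 at P23, a difference of 3.01 (exact permutation p = 0.1). For Mag the difference was 2.59, also without overlap. Per Sox10, Prx (0.70) and Pmp22 (0.59) overlapped between the ages.

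In INSL3-KI against WT at P23, Mbp and Prx per Sox10 differed by -1.11 and -0.78, with overlap (exact permutation p = 0.2 for each), and Pmp22 by 0.07. Mag differed by -3.65, with overlap. Egr2 per Sox10 was higher in INSL3-KI there by 2.35, without overlap.

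At P8 the differences in INSL3-KI against WT that did not overlap were -1.27 for Pmp22, -1.29 for Prx, 0.88 for Mbp and -0.21 for S100b. In INSL3-KO they were 0.22 for Pmp22, -1.89 for Prx, 1.07 for Mbp and 1.61 for S100b. Mbp per Sox10 was thus above WT in both mutants. Its WT values were -0.84, 0.88 and 1.14, of which the first library was far the lowest, against 1.25 to 1.32 in INSL3-KI and 1.31 to 1.56 in INSL3-KO.

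**Figure D3:**
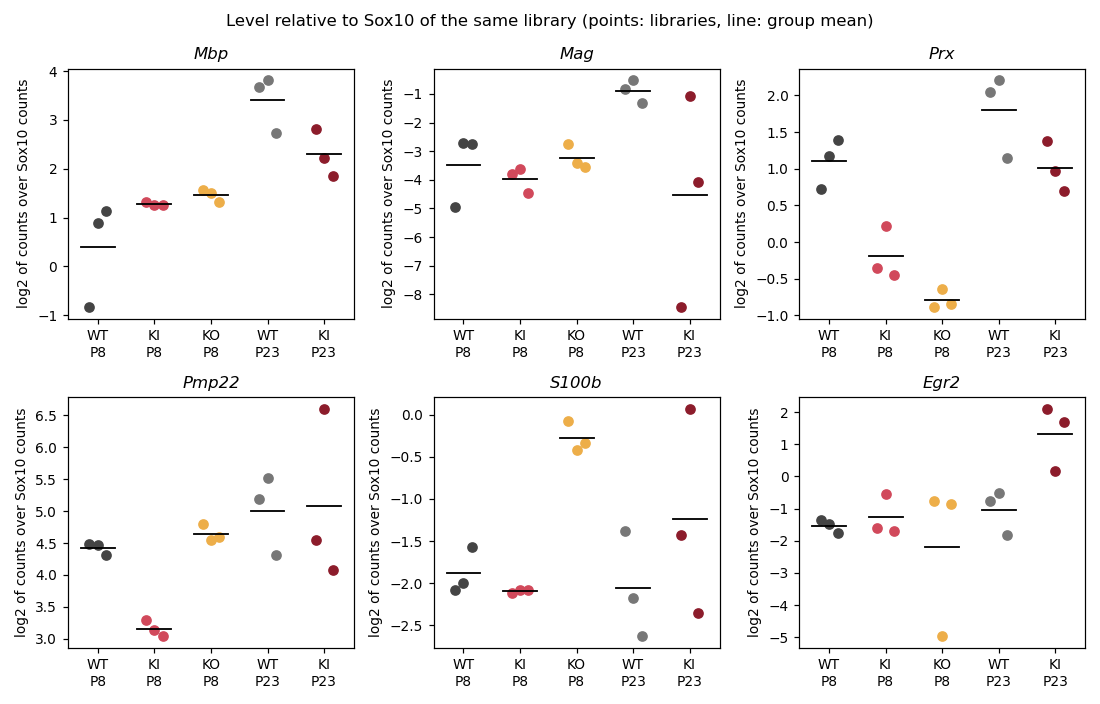
Log2 ratio of the counts of 6 members to those of Sox10 in every gubernaculum library (points), with group means (lines). For Mbp and Mag the WT libraries at P23 sit above those at P8, and for S100b the INSL3-KO libraries sit above all WT libraries.

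The other Schwann cell genes were read as 4 lists, 70 genes in all, with the members left out. Of 17 tested genes of myelin proteins and lipid enzymes, 2 were called lower in INSL3-KI at P8 and 4 higher, beside 9.70% and 14.4% of all genes, with a median log2 change of -0.03 beside 0.02 over all genes. The largest fall was that of Drp2 (-3.02) and the largest rise that of Gjb1 (7.39), a connexin that epithelia share with Schwann cells, from 0 to 7 counts in WT to 400 to 532. The sum of epididymis genes, whose epithelium is a neighbour of this tissue, was 0.33 to 1.71 CPM in WT and 922 to 1899 in INSL3-KI. In INSL3-KO 1 of 18 was called lower, Drp2 again, and 5 higher, led by Gjb1 at 157 to 934 counts, beside 15.2% and 15.5% of all genes. Ncmap (0.0947 to 1.55 CPM over all P8 libraries) was called in neither mutant. In the direct test of INSL3-KI against INSL3-KO the largest fall in this list was that of Fa2h (-3.19). At P23 2 of 18 were called lower in INSL3-KI (Drp2 and the lipid hydroxylase Fa2h) and 0 higher, beside 2.35% and 0.212%, with a median of -0.99 beside 0.11, and DESeq2 called 9 lower, beside 9.18%. Leaving out 1 library gave 0 to 4 lower, the 4 together with 2 higher when INSL3-KI replicate 2 was left out, without the share of all genes in those fits. From P8 to P23 in WT 6 of 18 were called higher and 0 lower, beside 6.17% and 4.34% (median 0.97, beside 0), led by Ncmap (4.34 ± 0.64, edgeR adjusted p = 0.0034), a membrane protein of the non-compact sheath, with Cldn19 at 3.04 ± 0.59. Leaving out 1 library left 1 to 5 of these calls. Ncmap lost its call without WT P8 replicate 2 (adjusted p = 0.022), and Cldn19 without any library but WT P8 replicate 1 (0.016 to 0.03) and with all 5 groups in 1 fit (0.017).

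Of the lineage list, 1 of 18 was called lower in INSL3-KI and 4 higher at P8, beside 9.70% and 14.4% of all genes. In INSL3-KO 3 were called lower and 3 higher, beside 15.2% and 15.5%. Scn7a, a sodium channel of non-myelinating Schwann cells, rose from 9.60, 14.4 and 14.5 CPM in WT to 46.1, 73.8 and 49.3 in INSL3-KI and to 58.6, 51.1 and 58.0 in INSL3-KO. It was at 58.7 to 68.0 CPM in WT at P23. The neurotrophin receptor Ngfr, a marker of immature Schwann cells, had 57.0 to 62.8 CPM in WT at P8 and 15.5 to 18.6 in INSL3-KO (log2 -1.81 ± 0.09, edgeR adjusted p = 4.8e-06), a call lost with all 5 groups in 1 fit (adjusted p = 0.017). In WT it fell between P8 and P23, to 4.48 to 15.1 CPM (log2 -2.44, adjusted p = 0.0046), together with the neuregulin receptor Erbb3 (-1.32, adjusted p = 0.0033). Both calls were lost without any 1 of the WT P8 libraries or without WT P23 replicate 2, with adjusted p of 0.012 to 0.021 for Ngfr and 0.013 to 0.019 for Erbb3, and that of Erbb3 also with all 5 groups in 1 fit (0.23). The other largest changes at P8 were Artn, higher in INSL3-KI (5.60) and INSL3-KO (4.31), and Ptprz1, lower in INSL3-KI (-1.85). The cadherin Cdh19 was called higher in INSL3-KI at P8 (1.19), and Dhh, the desert hedgehog ligand by which Schwann cells signal to perineurium, lower in INSL3-KO (-1.15). The Cdh19 call was lost without WT replicate 1 or 2 or INSL3-KI replicate 2 (adjusted p of 0.01 to 0.012). The Dhh call was lost without WT replicate 2 or 3 or INSL3-KO replicate 1 or 2 (0.015 to 0.018) and with all 5 groups in 1 fit (0.11). It was a fall in counts only: mean FPKM was 1.19 in WT and 1.07 in INSL3-KO, and limma on log2(FPKM + 1) gave -0.08. WT testis at P23, in the second deposited table, had 517 to 626 Dhh counts at 5.88 FPKM. WT testis at P40, in the first, had 761 to 948 at 5.18 FPKM. Dhh counts per FPKM thus differed between the tables within WT, and the part of the table in the call was not tested. Between the mutants, Fabp7 was lower (-1.39) and Gfap higher (1.49) in INSL3-KI than in the knockout. At P23 0 of 17 lineage genes were called in INSL3-KI. Erbb3 there had 109, 2.80 and 156 CPM against 22.2 to 36.1 in WT, another gene for which the second INSL3-KI library stood apart, and it is also expressed by epithelia.

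Among myelination regulators, 3 of 17 were called lower in INSL3-KI at P8 and 4 higher, beside 9.70% and 14.4% of all genes. In INSL3-KO 6 were called lower and 2 higher, beside 15.2% and 15.5%. Pou3f1 (also called OCT6), the factor that precedes Egr2, had 4.11, 4.59 and 4.84 CPM in WT, 0.988, 0.817 and 1.72 in INSL3-KI and 3.21, 2.94 and 3.26 in INSL3-KO. It was called lower in INSL3-KI against WT (-1.90 ± 0.34, edgeR adjusted p = 0.002) and against INSL3-KO (-1.41, adjusted p = 0.0067). With all 5 groups in 1 fit both calls were lost (adjusted p = 0.037 and 0.11). The first was also lost without INSL3-KI replicate 1 (0.01), and the second without any library but INSL3-KI replicate 3 (0.016 to 0.025). Jun fell to 68.3 to 77.9 CPM in INSL3-KI from 290 to 339 in WT, and Id2 rose in both mutants, from 9.31 to 14.1 CPM in WT to 342 to 405 and 392 to 415. Both genes act in many cell types, and the sum of 10 immediate early genes was 922 to 1250 CPM in WT, 188 to 208 in INSL3-KI and 432 to 447 in INSL3-KO. Nrg1, the neuregulin signal to Schwann cells, had the largest fall in INSL3-KO (3.54 to 4.42 CPM in WT and 0.417 to 0.736 in INSL3-KO) and again from P8 to P23 in WT (log2 -1.84). Nfatc4 had the largest rise in INSL3-KI against INSL3-KO (2.22). At P23 0 of these regulators were called in INSL3-KI.

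Of the adhesion genes of node, paranode and internode, 2 of 16 were called lower in INSL3-KI at P8 and 2 higher, beside 9.70% and 14.4% of all genes. In INSL3-KO 5 of 15 were called lower and 1 higher, beside 15.2% and 15.5%. Gldn, the gliomedin that Schwann cell microvilli place at the node, had 0.505, 1.2 and 1.23 CPM in WT at P8 and 16.7, 7.47 and 6.68 at P23 (log2 3.38 ± 0.50, edgeR adjusted p = 0.0034), a call lost without any 1 of the P8 libraries (0.015 to 0.018). In INSL3-KI at P23 it had 0, 0.185 and 0.110 CPM, which did not pass (adjusted p = 0.019). Epb41l3 had the largest fall in INSL3-KI at P8 (-2.27) and from P8 to P23 in WT (-2.18), and Cntn1 the largest rise in INSL3-KI (1.64) and INSL3-KO (1.14) at P8. Gldn and Cldn19 were both called lower in INSL3-KI than in the knockout (-3.12 and -2.86), Cldn19 not without INSL3-KI replicate 3 or INSL3-KO replicate 2 (adjusted p = 0.019 and 0.016) or with all 5 groups in 1 fit (0.02). The internodal adhesion protein Cadm4 was the gene of this list called at P23, at 38.2 ± 5.88 CPM (SD, n = 3) in WT and 6.57 ± 1.19 in INSL3-KI, and it was also called in the interaction with age (-2.04, edgeR adjusted p = 0.0082). The largest fall in INSL3-KO was that of Kcna2, at 0 to 8 counts against 179 to 585 in WT and 396 to 948 in INSL3-KI.

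The axons that Schwann cells accompany were read by a list of neuron and axon genes. Of 16 tested, 8 were called lower in INSL3-KI at P8 and 3 higher, with a median of -1.41, beside 9.70% and 14.4% of all genes. In INSL3-KO 6 of 17 were called lower and 3 higher, beside 15.2% and 15.5%. Their summed level was 93.9 to 117 CPM in WT, 31.4 to 49.6 in INSL3-KI and 52.4 to 58.0 in INSL3-KO. At P23 it was 138 to 322 CPM in WT and 16.3 to 26.5 in INSL3-KI, where 1 of 12 genes, Isl1, was called lower, beside 2.35% of all genes. The 322 CPM came from WT replicate 1, where 9 of the 20 genes had more than 3 counts. In replicates 2 and 3 these were 17 and 15. From P8 to P23 in WT 4 of 14 tested were called lower and 1 higher, beside 4.34% and 6.17% of all genes. Their median log2 change was -1.22, so the higher WT sum was not a rise of most of these genes. Several genes of that list are also transcribed in muscle or its precursors. The sum of the Schwann cell lineage list was 299 to 348 CPM in WT, 346 to 387 in INSL3-KI and 319 to 331 in INSL3-KO at P8. At P23 it was 189 to 268 CPM in WT and 332 to 419 in INSL3-KI, of which Erbb3 and Scn7a made up 199 to 227 in INSL3-KI and 84.9 to 94.8 in WT. Without these 2 genes, chosen after their values were seen, the sums were 130 to 192 CPM in INSL3-KI and 98.5 to 173 in WT, which overlapped, and the median log2 change over the 17 genes tested was 0.09.

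**Figure D4:**
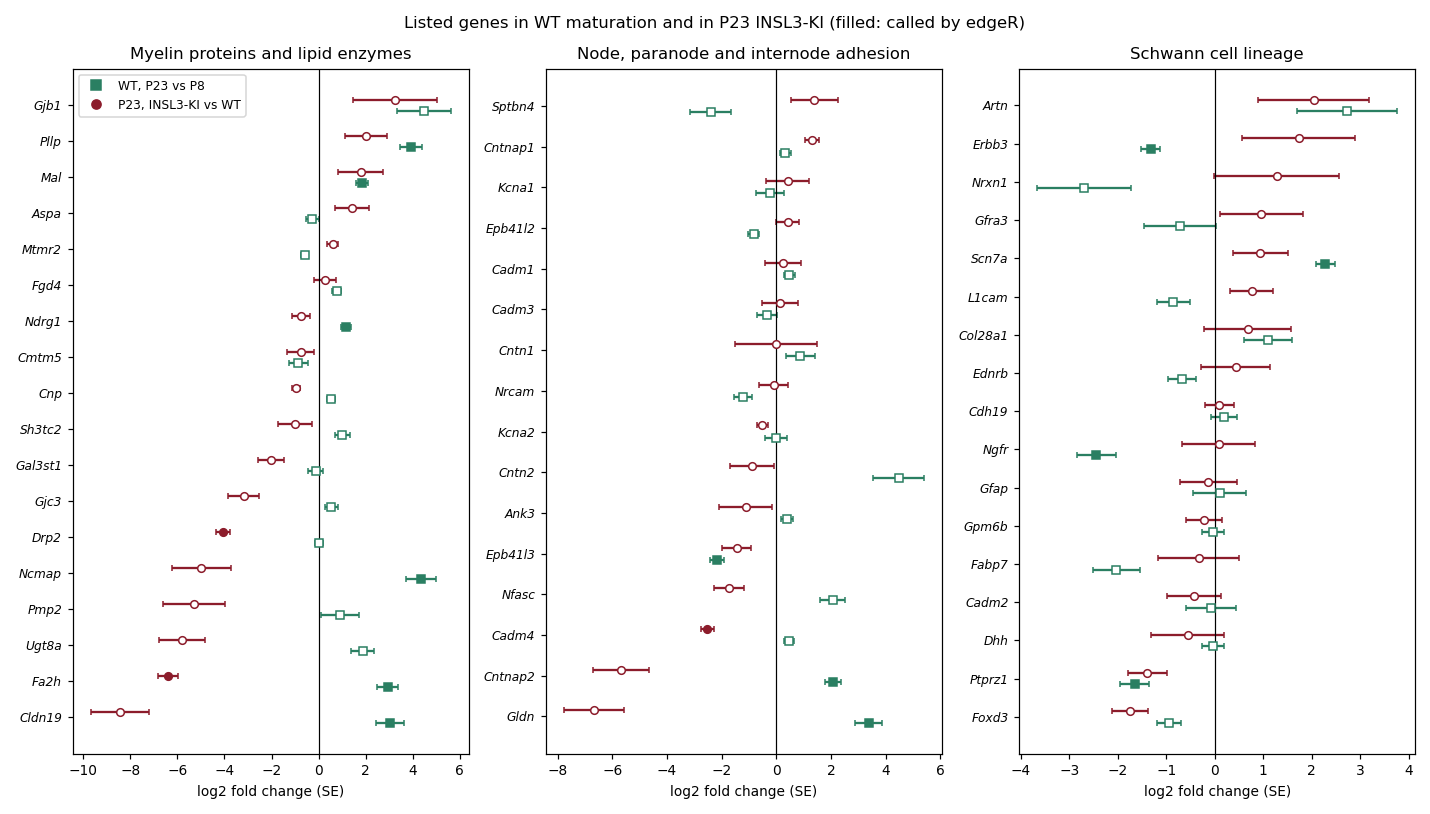
Log2 fold change with SE from edgeR of the genes of 3 of the lists, 1 row a gene, for WT at P23 against P8 (squares) and INSL3-KI against WT at P23 (circles); filled symbols were called. Fa2h, Ncmap and Cldn19 lie to the right of 0 with age in WT and to the left in INSL3-KI.

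The Mbp gene makes transcripts of very different length, 354 to 4797 bases in 16 transcripts of GENCODE M21. A gene's deposited count divided by its FPKM and by the library total gives the transcript length that the FPKM implies. For Sox10 it was 2774 to 2818 bases in all 15 gubernaculum libraries. For Mbp it was 2497 to 2764 bases in WT at P8 and 2180 to 2314 at P23, without overlap. In INSL3-KI it was 2865 to 3182 bases at P8 and 3287 to 3924 at P23, again without overlap and in the other direction. INSL3-KO at P8 lay at 2403 to 2445. The implied length of Mbp was therefore shortest in the group with most Mbp. Lengths come from the authors' transcript assignment, which the sources used here do not describe, and no test was run on them.

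**Figure D5:**
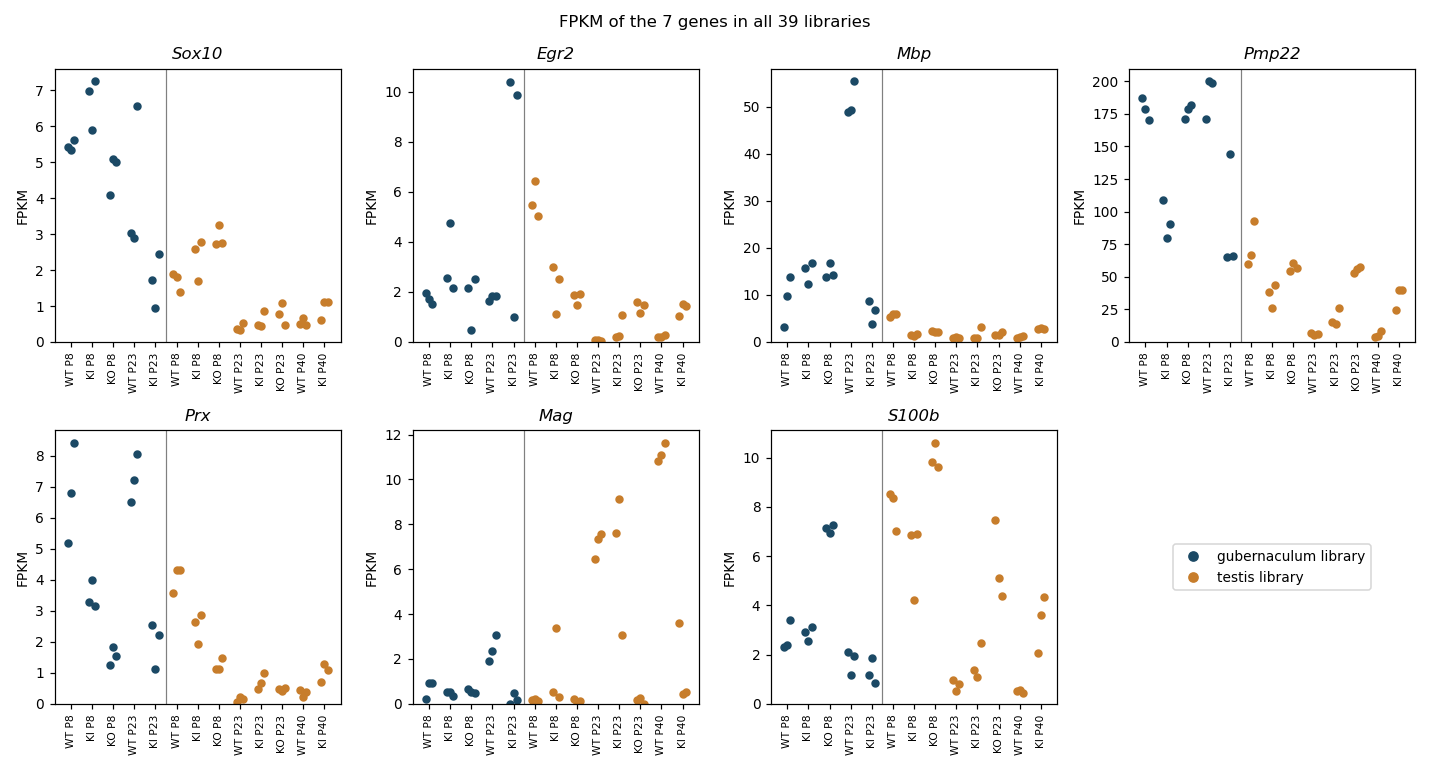
FPKM (linear axis) of the 7 members in every gubernaculum and testis library, 3 libraries for each genotype and age. Mag in WT testis at P23 and P40 lies above every gubernaculum library, and Mbp is highest in WT gubernaculum at P23.

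Testis, which has few myelinated nerves, served as the reference. In WT at P8 3 members were called higher in gubernaculum (Sox10, Pmp22 and Prx), beside 14.1% of genes, and 2 lower (Egr2 and S100b), beside 14.3%. Sox10 was 4.39-fold higher (log2 2.13 ± 0.17, edgeR adjusted p = 4.8e-05), with 5.46 FPKM against 1.70 in testis. Mbp (0.70, adjusted p = 0.21) did not pass, and it did without WT P8 gubernaculum replicate 1 (1.10, adjusted p = 0.0022). In INSL3-KI at P8 Sox10, Mbp and Pmp22 were called higher in gubernaculum, beside 19.9% of genes, and 0 lower, beside 17.3%. In INSL3-KO at P8, whose testis libraries held 613 to 906 Insl3 counts, Mbp, Pmp22 and Mag were called higher, beside 22.9%, and 0 lower, beside 20.8%. In INSL3-KI at P23 Pmp22 alone was called higher, beside 13.5%, and 0 lower, beside 22.7%.

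Within P8 testis, 1 member, Mbp, was called lower in INSL3-KI (-2.19 ± 0.21, edgeR adjusted p = 0.0036), beside 3.25% of genes, and 0 higher, beside 3.03%. That call was lost without 4 of the 6 libraries in turn. In INSL3-KO testis Egr2 (-1.54), Mbp (-1.72) and Prx (-1.77) were called lower, beside 8.37% of genes, and 0 higher, beside 5.44%. These testes are the ones that held 613 to 906 Insl3 counts. Prx was thus called lower in INSL3-KO in both tissues. Mbp was called lower in the testis of both mutants and not in their gubernaculum at P8, a difference that was not tested for INSL3-KI. Whether the INSL3-KO effect differed between the tissues was tested as an interaction, in which Sox10 was called lower, beside 10.3% of genes, and Mbp higher, beside 9.89%.

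Mag departed from the other members in testis. It had 14 to 21 reads in WT testis at P8, 612 to 711 at P23 and 879 to 1135 at P40. INSL3-KI testes had 809, 882 and 273 reads at P23 and 346, 39 and 47 at P40, and INSL3-KO testes 16, 31 and 0 at P23. At 7.13 FPKM in WT at P23 and 11.2 at P40, its mean level in testis was above the 2.44 FPKM of WT gubernaculum at P23. Sox10 in the same WT testes was at 0.403 and 0.538 FPKM. The P8 and P23 WT testis libraries stand in different deposited tables, and no test was run between them.

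Genes with the pattern most like the members over the 15 gubernaculum libraries were named by Pearson's r of log2 CPM, as a description, since libraries of 1 group share their genotype, age and table. Against the mean z-score of the 7 members the first were Msln (0.957), Igfbp5 (0.956), Lingo3 (0.950), Mn1 and Lrrn4 (0.937 each), then Tmem151a, Slco5a1, Atp1b2, Ano5 and Six4. For single members, the genes most like Mbp were Ncmap (0.952), Tmtc1 and Fgf1, and those most like Mag were Srpx2 (0.931), C1s1 and Frmd5. Those most like Sox10 were Prdm8 (0.930), Pygo1 and Jph4, those most like Egr2 Hist2h3c1 (0.865), Slc10a3 and Ppm1l, and those most like Pmp22 As3mt (0.982), Plpp1 and Ube2j2. Prx went with Hdac4 (0.980), Traf3 and 5730455P16Rik, and S100b with Klhl7 (0.954), Zfp280c and Ifitm5. Among the members themselves r was highest between Pmp22 and Mag (0.74) and between Mbp and Mag (0.62), and lowest between Egr2 and S100b (-0.59). The 7 genes did not share 1 pattern across these groups.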

How the data were processed

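mRNA libraries of whole gubernaculum and testis were sequenced by the authors. Per the labels they deposited gene counts, not normalized, and FPKM values per library in 2 tables; the submitters' processing notes name HISAT2 and GRCm38, and the annotation and the counting program are not given in the sources used here. The first table holds WT and INSL3-KI libraries except WT testis at P23, which stands with the INSL3-KO libraries in the second. The tables were joined on Ensembl identifiers. Groups and replicate numbers follow the labels and the study's methods call the replicates independent, while the labels do not tie libraries to single animals, so that p-values measure the spread between these samples.

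Counts were tested in edgeR 4.0.16 (R 4.3.3) by the quasi-likelihood test with TMM scaling, filterByExpr at its minimum count of 10, with p-values adjusted by Benjamini and Hochberg's method over every gene in the fit, for the 2 groups compared or, for interactions, 4 groups. CPM values use the TMM factors of the 15 gubernaculum libraries. Alternatives were DESeq2 1.42.0, library-size scaling, no filter, TMM without muscle genes, all gubernaculum groups in 1 fit, a replicate block, limma 3.58.1 on log2(FPKM + 1) or log2(FPKM + 0.1), and each library left out. The fit was tested on simulated data. Ratios to Sox10 used an offset of 0.5 counts and exact permutation tests. No 2 replicates agreed within sampling noise.

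The members and gene lists were chosen with earlier results of these data known. Besides the members, 10 genes of the lists were always named (Ncmap, Drp2, Cldn19, Erbb3, Ngfr, Cdh19, Scn7a, Pou3f1, Gldn and Dhh), with the called genes of largest rise and fall in each Schwann cell list and the genes most like the members. A few further genes are not reported here and were taken out of the lists and of the ranking by likeness. Fa2h, Isl1, Cadm4, Insig1, Srebf2, Idi1 and Sc5d were named for counts of 5 or fewer calls, after their values were seen. Library totals ran from 29861447 to 45260372 counts in gubernaculum, and a member below about 10 counts is not measured with any precision.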

Additional observations from a re-analysis of the deposited data

Results flagged for a closer look

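The INSL3-KO difference at P8 was not the same in gubernaculum and testis for Sox10 and Mbp, by edgeR's test of the difference between the tissues. For Sox10 it was log2 -0.37 ± 0.12 (SE) in gubernaculum and 0.70 in testis, and the difference of -1.17 ± 0.20 had an adjusted p of 7.7e-04. Without WT testis replicate 3 it was -0.97, under the 2-fold threshold. For Mbp it was 0.46 ± 0.44 in gubernaculum and -1.72 in testis, and the difference of 2.09 ± 0.53 had an edgeR adjusted p of 0.0067. That call was lost without any of 9 of the 12 libraries in turn, and WT gubernaculum replicate 1, the library with low Mbp, takes part in it. All INSL3-KO libraries of both tissues stand in the second deposited table and all WT libraries used here in the first, so a table difference shared by the tissues would cancel and 1 that differs between them would not. The testis libraries labelled INSL3-KO held 613 to 906 Insl3 counts, and the part of this in the interaction was not tested.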

How the results depend on the processing

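Over 25 called results of the members, 343 alternatives gave 296 calls, 47 losses of the call and 0 reversals. The cause of the changes below was not tested. The number of members called differed from the main count as follows. DESeq2 called 3 lower in INSL3-KI at P23 (main 0), 2 higher from P8 to P23 in WT (1), 1 lower from P8 to P23 in INSL3-KI (0), 3 lower and 1 higher in INSL3-KI testis at P8 (1 and 0), 1 lower and 5 higher in gubernaculum against testis in INSL3-KI at P23 (0 and 1) and 1 lower in the interaction with age (0). All 5 groups in 1 fit gave 4 lower in INSL3-KI at P23, 1 lower with age in INSL3-KI, 1 lower in the interaction with age and 0 higher in INSL3-KO at P8 (1). limma gave 0 lower in INSL3-KI at P8 (2), 1 lower against INSL3-KO (2), 1 lower in INSL3-KI at P23, 1 lower in gubernaculum against testis in INSL3-KI at P23 and 0 lower in the INSL3-KO interaction (1) with either pseudocount. With a pseudocount of 1 it gave 1 lower in the interaction with age. With 0.1 it gave 1 higher in INSL3-KI against INSL3-KO (0), 0 higher with age in WT, 1 lower in gubernaculum against testis in INSL3-KI at P8 (0) and 2 higher in the INSL3-KO interaction (1). Scaling by library size gave 1 lower in INSL3-KI at P8, 1 higher against INSL3-KO and 2 higher in the INSL3-KO interaction. Over all genes the share called moved as well. DESeq2 called 28.5% lower and 21.5% higher in gubernaculum against testis in INSL3-KI at P23 (22.7% and 13.5% by edgeR), 7.18% lower and 6.45% higher in INSL3-KI testis (3.25% and 3.03%), and 9.18% lower in INSL3-KI at P23 (2.35%). limma with a pseudocount of 1 called 6.38% lower in INSL3-KI at P8 (9.70%), 6.64% against INSL3-KO (10.5%), 3.56% in INSL3-KI at P23 and 7.92% in the INSL3-KO interaction (10.3%). It called 22.5% lower in gubernaculum against testis in INSL3-KI at P23 and 1.53% lower in the interaction with age (0.194%). With 0.1 the lower shares were 5.83% in INSL3-KI at P8, 6.96% against INSL3-KO and 2.58% in INSL3-KI at P23. They were 17.5% and 20.9% in gubernaculum against testis in INSL3-KI at P8 and P23, and 7.64% in the INSL3-KO interaction. The higher shares with 0.1 were 12.6% against INSL3-KO, 2.83% with age in WT and 11.7% in the INSL3-KO interaction. Scaling by library size called 20.3% higher in INSL3-KI at P8 (14.4%), 15.9% against INSL3-KO (11.9%) and 12.0% in the INSL3-KO interaction (9.89%). It called 7.31% lower in INSL3-KI at P8 (9.70%). That scaling moved the median of all genes to 0.34 in INSL3-KI and 0.20 in INSL3-KO at P8 and to 0.41 in INSL3-KI at P23.

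Leaving out 1 library gave 2 lower in INSL3-KI at P8, 1 lower and 1 higher in INSL3-KO, 2 lower and 0 to 1 higher between the mutants, 0 to 3 lower and 0 to 1 higher in INSL3-KI at P23, 0 to 1 higher with age in WT, 0 to 1 lower in INSL3-KI testis and 3 lower in INSL3-KO testis. Gubernaculum against testis gave 0 to 2 lower and 3 to 5 higher in WT, 0 to 1 lower and 3 higher in INSL3-KI and 3 to 4 higher in INSL3-KO at P8, and 0 to 1 lower and 0 to 3 higher in INSL3-KI at P23. The INSL3-KO interaction gave 0 to 1 lower and 0 to 2 higher, and the other counts were 0 throughout. The shares of all genes called with a library left out are not given here.

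The correlation of same-numbered deviations was -0.20 to 0.44 over 30 pairs, 2 of them over 0.1. Both were WT against INSL3-KI gubernaculum at P23, replicate 2 (0.31) and replicate 3 (0.44), with -0.08 for replicate 1. Replicate numbers thus did not pair the samples outside P23, and why these P23 libraries were alike was not tested. With the replicate block 0 members were called higher with age in WT, beside 1.77% of genes, and 0 lower in INSL3-KI testis, beside 0.00637%. In gubernaculum against testis it gave 1 lower in WT at P8, beside 12.1%, and 0 higher in INSL3-KI at P23, beside 2.75%. In INSL3-KI against WT gubernaculum at P23 it called 0 of 15082 genes lower and 0 higher. Under the block the sign of Ngfr in INSL3-KI at P23 (-0.22), Drp2 with age in WT (-0.00) and Egr2 in gubernaculum against testis in INSL3-KO (-0.38) also turned.

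Other values that changed sign, none of them called, were these log2 changes. In INSL3-KI at P8 Sox10 was 0.28 by library size and 0.25 and 0.29 by limma (pseudocounts 1 and 0.1), and S100b 0.05, 0.06 and 0.09. Pmp22 in INSL3-KO at P8 was 0.02 by library size. With age in WT, Egr2 (-0.02) and Drp2 (-0.12) turned by library size, and Drp2 by limma also (-0.14 and -0.15). With age in INSL3-KI Pmp22 was -0.02 by library size and -0.12 by limma with either pseudocount. Egr2 in gubernaculum against testis in INSL3-KO was -0.14 by library size and -0.12 and -0.30 by limma. In the interaction with age Pmp22 was 0.01 with all groups in 1 fit. In the INSL3-KO interaction Mag was 0.00 by library size and 0.15 by limma with 0.1. Leaving out 1 library turned 25 of 912 values of single genes, with these ranges. In INSL3-KI against WT at P8 Sox10 was -0.09 to 0.04 and Egr2 -0.08 to 0.43. In INSL3-KO at P8 Egr2 was -0.73 to 0.29 and Cldn19 -0.29 to 0.56, and between the mutants Egr2 was -0.06 to 0.96. At P23 Ngfr was -0.87 to 0.44 and Cdh19 -0.11 to 0.25. With age in WT Drp2 was -0.19 to 0.15 and Dhh -0.18 to 0.08, and in INSL3-KI Pmp22 was -0.42 to 0.41. Against testis Mag in INSL3-KI at P8 was -1.92 to 0.26 and Egr2 in INSL3-KO -0.34 to 0.69. In the interaction with age Pmp22 was -0.63 to 0.18, and in the INSL3-KO interaction Mag was -0.59 to 0.26.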

Other observations

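Myelin needs large amounts of cholesterol, and 15 genes of its synthesis and its control were followed as a list. From P8 to P23 in WT gubernaculum edgeR called 3 of the 15 lower (Insig1, Srebf2 and Idi1) and 0 higher, beside 4.34% and 6.17% of all genes. The median log2 change was -0.84, beside 0 over all genes, in the same libraries in which Mbp was higher. In INSL3-KI against WT at P23 the median was 1.47, beside 0.11 over all genes. Of the 15, 1 was called higher, Sc5d, beside 0.212% of all genes, and 0 lower, beside 2.35%. In the interaction with age edgeR called 0 of the 15, beside 0.194% of all genes lower and 0.0874% higher. The median was 1.65, beside -0.02 over all genes. All 15 had an unadjusted p under 0.05, a count for which the share of all genes is not given here. Adipocytes, steroid-producing cells and muscle use this pathway too, and the adipocyte and muscle sums given above moved between the same groups. Their part in these values was not tested.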
